A study of Mus musculus with 4 samples.

Results

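The 10 genes *Rgs2*, *Rgs3*, *Rgs4*, *Rgs5*, *Rgs7*, *Rgs8*, *Rgs10*, *Rgs16*, *Rgs17* and *Rgs20* encode regulators of G protein signalling (RGS) and were followed through sensory neurons of the mouse dorsal root ganglion (DRG) by single-cell RNA sequencing. They were taken by symbol from the 31053 genes of the count tables. The choice was made with their levels across neuron subtypes, after nerve injury and in *Sprr1a*+ and *Sprr1a*- neurons already known, so their values in those comparisons are given as a description without a test. All mice carried *Pirt*EGFPf, a reporter that labels primary sensory neurons through the *Pirt* locus, on a C57BL/6 background, and were 7 to 8 weeks old. Males and females had either sham surgery (Male-Sham, Female-Sham) or a chronic constriction injury of both sciatic nerves (CCI), the latter named Male-CCI and Female-CCI. GFP+ cells of lumbar DRGs were sorted 7 days after surgery, and each of the 4 groups gave 1 library from 20 ganglia of 5 pooled mice. The male and the female library were the only replicates of a surgery, so the spread between mice was not measured.

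RGS proteins bind active G alpha subunits and speed the hydrolysis of their GTP, which shortens the signal of G protein-coupled receptors. In nociceptors, opioid, GABA-B and other inhibitory receptors act through Gi/o, and receptors for bradykinin and other inflammatory mediators act through Gq. *Rgs2*, *Rgs3*, *Rgs4*, *Rgs5*, *Rgs8* and *Rgs16* belong to the R4 family, *Rgs7* to the R7 family, whose members pair with G beta 5, *Rgs10* to the R12 family, and *Rgs17* and *Rgs20* to the RZ family, which acts on Gz and Gi.

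After filtering, the sham libraries held 3281 male and 5398 female neurons and the CCI libraries 2817 male and 3638 female neurons, from 195684124 to 237069156 UMIs (unique molecular identifiers, each a counted transcript) deposited per library. Levels are in CPM, the UMIs of a gene per 1000000 UMIs, summed over a group of cells of 1 library. The 6 general neuron markers were all detected in every library and summed to 10760 CPM in Male-Sham and 10626 CPM in Female-Sham. Cells with the same barcode occurred in more than 1 library for 1085 barcodes. Of the cells with such a barcode 904 were kept, and 17 barcodes were kept in 2 libraries. The injury genes *Sprr1a*, *Ecel1* and *Sox11* were higher in CCI by 4.57 ± 0.63, 4.03 ± 0.30 and 3.40 ± 0.12 (log2 change ± SE; edgeR quasi-likelihood test with Benjamini-Hochberg adjustment, adjusted p = 0.0204, 0.00249 and 1.78e-05). The call of *Sprr1a* was lost without the Male-CCI and without the Female-CCI library (edgeR adjusted p = 0.136 and 0.123) and with sex as a block (0.0977). A neuron was called *Sprr1a*+ at a log-normalized *Sprr1a* value above 1, which gave 42 of the Male-Sham, 144 of the Female-Sham, 1467 of the Male-CCI and 1790 of the Female-CCI neurons.

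Of the 10 genes, 7 lie on chromosome 1 (GRCm38), where 2 pairs are neighbours with no coding gene between them. *Rgs8* (chr1:153653025-153700323, + strand) and *Rgs16* (chr1:153740349-153745468, + strand) are 40025 bases apart. *Rgs5* (chr1:169655501-169695813, + strand) and *Rgs4* (chr1:169741477-169747642, - strand) are 45663 bases apart on opposite strands. *Rgs20* (chr1:4909576-5070285, - strand) overlaps the coding gene *Atp6v1h* on the other strand. *Rgs10* lies at chr7:128373621-128418758 (- strand) and *Rgs17* at chr10:5825663-5922400 (- strand).

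The stretches before the start sites of *Rgs17*, *Rgs2*, *Rgs4* and *Rgs8* are shown because they hold letters of a motif searched for injury-induced and cAMP-responsive factors, and that of *Rgs5* is shown beside its neighbour *Rgs4*. They are RefSeq sequence of GRCm38.p6, written 5′ to 3′ on the strand of the gene, and capitals mark TGACTCA in *Rgs17* and TGACG or its reverse complement CGTCA in the others. The positions are chr10:5922401-5922650 for *Rgs17*, chr1:144004162-144004399 for *Rgs2*, chr1:169747643-169747892 for *Rgs4*, chr1:153652787-153653024 for *Rgs8* and chr1:169655251-169655500 for *Rgs5*.
Rgs17: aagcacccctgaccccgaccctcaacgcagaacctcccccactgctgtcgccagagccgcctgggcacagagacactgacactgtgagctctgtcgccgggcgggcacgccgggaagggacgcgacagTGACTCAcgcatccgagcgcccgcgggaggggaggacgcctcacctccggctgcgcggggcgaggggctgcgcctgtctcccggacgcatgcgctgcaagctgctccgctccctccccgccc
Rgs2: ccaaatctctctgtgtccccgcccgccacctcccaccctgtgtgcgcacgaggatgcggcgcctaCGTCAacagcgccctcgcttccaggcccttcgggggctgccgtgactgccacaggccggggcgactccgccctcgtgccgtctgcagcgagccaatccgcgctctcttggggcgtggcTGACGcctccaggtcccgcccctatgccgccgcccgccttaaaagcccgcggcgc
Rgs4: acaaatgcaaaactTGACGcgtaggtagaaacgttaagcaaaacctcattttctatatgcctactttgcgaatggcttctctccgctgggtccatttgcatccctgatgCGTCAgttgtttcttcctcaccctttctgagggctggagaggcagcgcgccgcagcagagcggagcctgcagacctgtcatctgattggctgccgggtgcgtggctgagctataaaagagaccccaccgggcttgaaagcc
Rgs8: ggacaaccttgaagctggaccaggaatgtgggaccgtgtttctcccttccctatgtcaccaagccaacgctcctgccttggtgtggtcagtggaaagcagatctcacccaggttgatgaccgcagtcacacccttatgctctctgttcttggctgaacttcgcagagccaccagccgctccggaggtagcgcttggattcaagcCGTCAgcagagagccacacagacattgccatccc
Rgs5: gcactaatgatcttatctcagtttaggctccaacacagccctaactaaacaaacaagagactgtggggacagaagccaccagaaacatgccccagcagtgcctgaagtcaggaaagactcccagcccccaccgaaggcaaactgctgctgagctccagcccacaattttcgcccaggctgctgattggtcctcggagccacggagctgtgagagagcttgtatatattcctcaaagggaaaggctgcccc

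Promoter windows were found for 9 of the 10 genes, 12 windows in all, and none was matched to *Rgs20*. Of 32851 promoter windows, 5.2% held TGACTCA or its reverse complement TGAGTCA, 20.8% held TGACG on either strand and 1.79% held the palindrome TGACGTCA, which contains TGACG. Among the 12 windows, TGACTCA occurred in *Rgs17* and TGACG in *Rgs2*, *Rgs4* and *Rgs8*, and TGACGTCA in none. The 250 bases before the start held 72.4% G and C in *Rgs17* and *Rgs2* but 53.6% in both *Rgs4* and *Rgs5*, against a median of 52.4% over all windows.

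The subtypes differed in which RGS genes they held. Clusters, built without any Rgs gene among the variable genes, were named by fixed markers as non-peptidergic nociceptors (NP1 to NP3), peptidergic nociceptors (PEP1 to PEP5, with PEP3 and PEP4 together), large myelinated neurons (NF1 and NF2), C-fibre low-threshold mechanoreceptors (cLTMR) and neurons of injured ganglia (CCI-ind). A cluster led by *Calb1* and *Rxfp1* was left unnamed. In sham mice each gene was compared over the 10 named subtypes and this cluster, and neighbours in the order were counted as apart where the male and female values did not overlap.

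**Figure D1:**
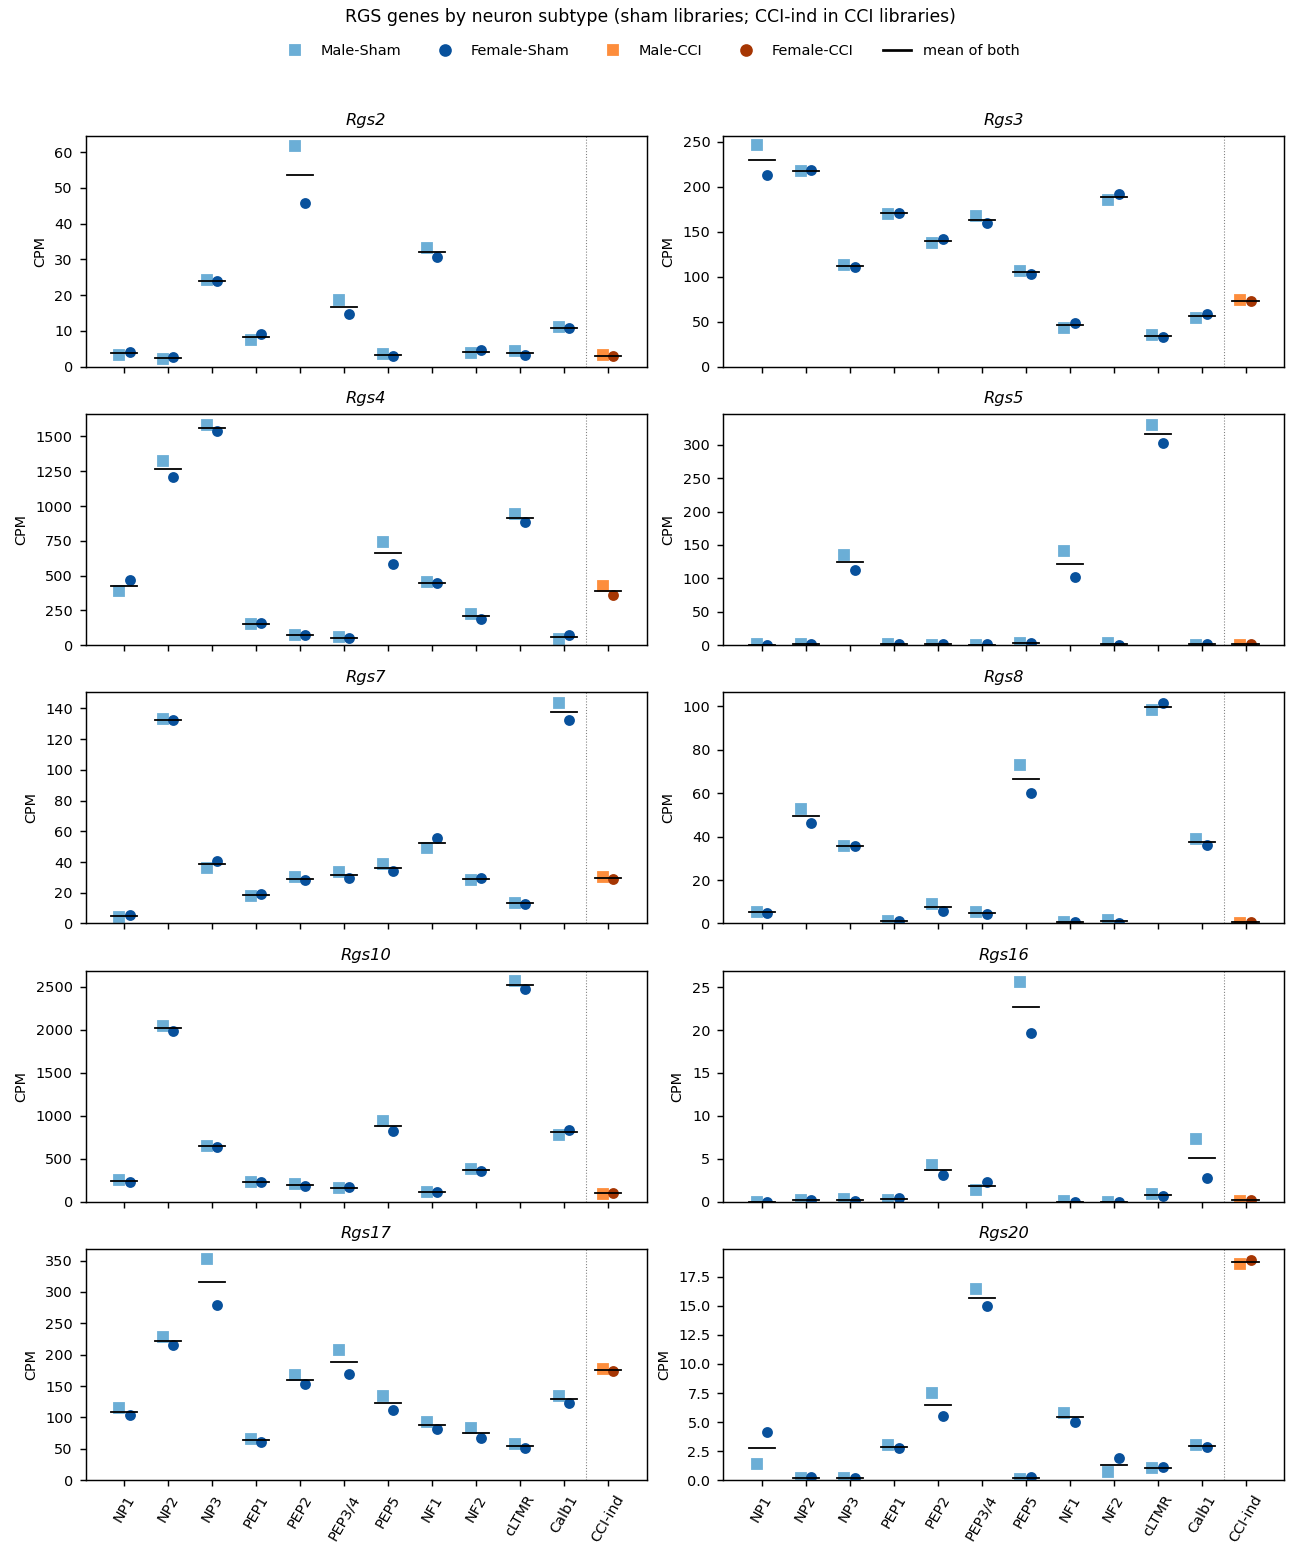
Levels of the 10 RGS genes in sham neurons by subtype, in CPM on linear axes, with 1 point for Male-Sham, 1 for Female-Sham and a line at their mean, and CCI-ind shown from the CCI libraries. *Rgs5*, *Rgs8* and *Rgs10* peak in cLTMR, *Rgs4* and *Rgs17* in NP3, *Rgs2* in PEP2, *Rgs16* in PEP5 and *Rgs20* in PEP3/4.

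Of the R4 genes, the neighbours *Rgs4* and *Rgs5* were both high in NP3 and cLTMR but differed in other subtypes. *Rgs5*, best known as a marker of pericytes, was at 330 CPM in Male-Sham and 302 CPM in Female-Sham cLTMR, followed by NP3 (135 and 113 CPM) and NF1 (141 and 102 CPM), whose values overlapped. In NF1 this level came from a minority of cells, since 25% and 23.6% had an *Rgs5* UMI, against 97.2% and 94.8% of cLTMR, and 3.66% and 1.59% in the *Sst*-led NP1 cluster (median depth 75560 UMIs in NF1 and 46280 in that cluster). It was at 2.97 and 3.77 CPM in PEP5 and lower in the other subtypes. The 8 pericyte and smooth muscle markers summed to 8.37 and 7.64 CPM over all sham neurons. In each sham library 7 of the 8 were detected, all but *Kcnj8* in Male-Sham and all but *Higd1b* in Female-Sham. The markers were not summed within cLTMR, NP3 or NF1, and their part in the level of *Rgs5* was not tested. Within cLTMR, *Rgs5* was higher in the cluster led by *Th* (409 and 398 CPM in sham, 360 and 346 CPM in CCI) than in the larger of those led by *Gpx2* and *C1ql4* (233 and 190 CPM in sham, 155 and 179 CPM in CCI), higher in the former in each of the 4 libraries. Of the 2 smaller cLTMR clusters, that led by *D130079A08Rik* held 544 and 523 CPM in sham (28 and 18 cells) and 512 and 393 CPM in CCI (2 and 12 cells). The other, also led by *Gpx2* (15 and 106 sham and 16 and 18 CCI cells), held 292 and 244 CPM and 177 and 226 CPM.

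*Rgs4*, a regulator of Gi/o and Gq, was highest in NP3 at 1584 and 1538 CPM, then in NP2 at 1322 and 1209 CPM and in cLTMR at 941 and 884 CPM. It was lowest in PEP3/4, at 56.5 and 52.5 CPM. The *Th*-led cLTMR cluster also held more *Rgs4* (1261 and 1178 CPM in sham) than the larger *Gpx2*-led cluster (601 and 557 CPM), and the smaller 2 clusters held 1357 and 1227 CPM (*D130079A08Rik*-led) and 802 and 700 CPM (*Gpx2*-led) in sham. *Rgs8* was at 98.2 and 101 CPM in cLTMR, 72.9 and 59.9 CPM in PEP5 and 52.5 and 46.2 CPM in NP2, and was at 0.618 and 0.582 CPM in NF1. Its high subtypes were thus in part those of *Rgs5* and *Rgs10*, but NF1, which held *Rgs5*, had almost no *Rgs8*.

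*Rgs2*, which prefers Gq, had a different pattern. It was highest in PEP2 (61.6 and 45.7 CPM), followed by NF1 (33.3 and 30.8 CPM) and NP3 (24.1 and 24.1 CPM), and was at 2.18 and 2.59 CPM in NP2. Within PEP2 the cluster led by *Dcn* and *Tmc3* held 94.5 and 77.7 CPM in sham and 116 and 89.9 CPM in CCI. *Rgs3* ranged from 246 and 213 CPM in NP1 and 218 and 218 CPM in NP2, which overlapped, to 35.8 and 32.7 CPM in cLTMR. *Rgs16*, the neighbour of *Rgs8*, was at 25.6 and 19.6 CPM in PEP5, the subtype marked by *Trpm8* and *Foxp2*, at 4.31 and 3.17 CPM in PEP2, and at 0 in NP1 and NF2.

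Among the other families, *Rgs10* was highest in cLTMR, NP2 and PEP5 as *Rgs8* was, whereas *Rgs17* and *Rgs20* were not. NF2 held *Rgs10* at 381 and 364 CPM but *Rgs8* at 1.54 and 0.385 CPM. *Rgs10* was at 2565 and 2476 CPM in cLTMR, 2051 and 1988 CPM in NP2 and 935 and 825 CPM in PEP5, and at 118 and 119 CPM in NF1. *Rgs7* was at 133 and 132 CPM in NP2 and 143 and 132 CPM in the *Calb1*-led cluster, which overlapped, and at 4.53 and 5.23 CPM in NP1. Of the RZ genes, *Rgs17* was highest in NP3 (353 and 279 CPM) and lowest in cLTMR (57.6 and 51.9 CPM), the reverse of *Rgs5* and *Rgs10* in the latter subtype. *Rgs20* was at 16.4 and 15.0 CPM in PEP3/4, 7.52 and 5.48 CPM in PEP2 and 5.80 and 5.05 CPM in NF1, and no higher than 0.28 CPM in NP2, NP3 and PEP5. The male and female values separated neighbouring subtypes in 9 of 10 places for *Rgs3* and 8 of 10 for *Rgs4* and *Rgs10*, but in only 3 of 10 for *Rgs5* and *Rgs20*, whose lower subtypes lay close together.

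These levels, with those of CCI, were also correlated over 48 sums, 1 for each of 12 neuron groups in each library. The sums share libraries and neurons of the same ganglia. They include the sham levels above and are no separate support for the resemblance of *Rgs8* and *Rgs10*. On the log2(CPM + 1) scale Pearson's r was 0.89 between *Rgs8* and *Rgs10*, -0.82 between *Rgs10* and *Rgs20*, -0.76 between *Rgs8* and *Rgs20* and 0.58 between the neighbours *Rgs4* and *Rgs5*. Over all genes at or above 5 CPM, the gene most like *Rgs10* was *Mrps25* (r = 0.92) and that most like *Rgs8* was *Commd1* (r = 0.90). *Rgs20* was most like *Ly6e* (r = 0.90), *Smim3* (r = 0.90) and *Crem* (r = 0.89), a cAMP-responsive transcription factor gene. *Rgs5* was most like *Tnfrsf11a* (r = 0.82), *Rgs4* like *Stoml1* (r = 0.85), *Rgs2* like *Galnt10* (r = 0.80), *Rgs3* like *Ptger1* (r = 0.88), a prostaglandin E receptor gene, *Rgs16* like *Atp1b2* (r = 0.91), *Rgs7* like *Pcsk2* (r = 0.73) and *Rgs17* like *Ctdspl* (r = 0.72).

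Over all neurons, 8 of the 10 RGS genes were lower in both CCI libraries than in both sham libraries, and *Rgs17* and *Rgs20* were higher in both. Of all 17233 genes tested, 45.7% were lower and 34.5% higher without overlap, and since the genes were chosen on this contrast nothing is read from the count. The median log2 change of the 10 genes was -0.47, against -0.0061 over all genes tested. *Rgs10* was at 923 CPM in Male-Sham and 863 CPM in Female-Sham and at 376 CPM in Male-CCI and 448 CPM in Female-CCI. *Rgs20* was at 4.70 and 4.99 CPM in sham and 12.98 and 12.92 CPM in CCI, Male then Female. The CCI libraries held more CCI-ind neurons (1289 and 1630) than the sham libraries (46 and 137), so in these totals a change in the makeup of the library and a change within neurons cannot be told apart.

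The division by *Sprr1a* gave larger differences. Of the *Sprr1a*+ CCI neurons, 1250 in Male-CCI and 1557 in Female-CCI were CCI-ind, and 1 and 1 were cLTMR. cLTMR made up 11.2% and 12.8% of the *Sprr1a*- sham neurons. These pools, and those compared within CCI below, thus differed in subtype makeup, which cannot be told apart from a change within neurons. In *Sprr1a*+ CCI neurons 8 of the 10 genes were lower and 2 higher than in *Sprr1a*- sham neurons in both sexes, beside 52.5% lower and 34.9% higher among all 16881 genes tested, and again nothing is read from this count. The median log2 change was -1.32 for the 10 genes and -0.0097 for all. The 3 genes with peaks in cLTMR were all far lower. *Rgs8* was at 31.43 and 29.99 CPM in *Sprr1a*- sham neurons and at 0.488 and 0.508 CPM in *Sprr1a*+ CCI neurons, Male then Female, where it rested on 43 and 41 UMIs. *Rgs5* was at 63.5 and 57.5 CPM and at 1.09 and 2.00 CPM, and *Rgs10* at 936 and 886 CPM and at 89.4 and 101 CPM. These correspond to log2 changes of -5.79 for *Rgs8*, -5.16 for *Rgs5* and -3.11 for *Rgs10*, and the ranges of both sexes lay far apart for all 3 genes.

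**Figure D2:**
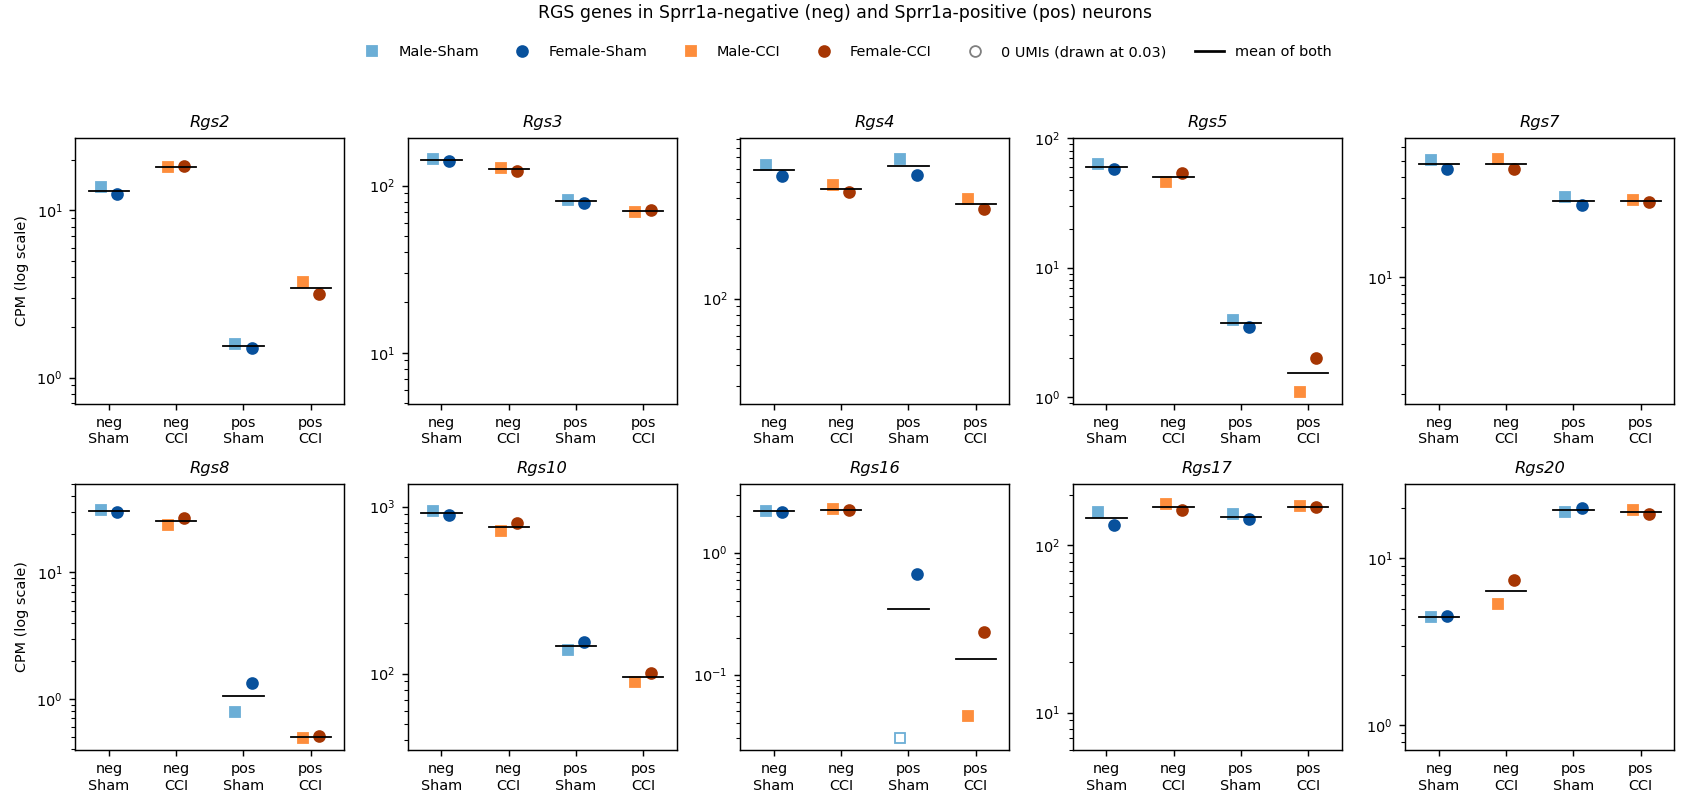
Levels of the 10 RGS genes in *Sprr1a*- and *Sprr1a*+ neurons of the sham and CCI libraries, in CPM on a log axis, with 1 point per library and a line at the mean of both sexes. *Rgs20* sits between 18.3 and 20.0 CPM in all 4 *Sprr1a*+ groups and between 4.48 and 7.40 CPM in all 4 *Sprr1a*- groups, while *Rgs10* lies between 89.4 and 154 CPM in *Sprr1a*+ and between 714 and 936 CPM in *Sprr1a*- groups.

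Of the remaining R4 genes, *Rgs2* was at 13.7 and 12.6 CPM in *Sprr1a*- sham neurons and 3.71 and 3.16 CPM in *Sprr1a*+ CCI neurons, a log2 change of -1.78. *Rgs16* was at 2.20 and 2.17 CPM and at 0.0454 and 0.223 CPM, from 4 and 18 UMIs, and its log2 change of -3.90 was -5.41 without the Female-CCI and -3.14 without the Male-CCI library. *Rgs3* and *Rgs4*, found in most subtypes, moved less. *Rgs3* was at 144 and 140 CPM in *Sprr1a*- sham and 69.8 and 71.8 CPM in *Sprr1a*+ CCI neurons (log2 change -0.85), and *Rgs4* at 632 and 542 CPM and at 393 and 345 CPM (-0.52). The R7 gene *Rgs7* was at 50.1 and 44.7 CPM and at 29.0 and 28.0 CPM (-0.58).

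The RZ genes were the only members higher in *Sprr1a*+ CCI neurons. *Rgs20* was at 4.48 and 4.50 CPM in *Sprr1a*- sham neurons and at 19.5 and 18.3 CPM in *Sprr1a*+ CCI neurons, a log2 change of 2.22. *Rgs17* was at 158 and 132 CPM and at 171 and 171 CPM, a log2 change of 0.39. The log2 ratios of its CPM were lower, 0.12 between the male and 0.37 between the female libraries, because edgeR changes use TMM-scaled library sizes and CPM do not. Over all genes the edgeR change lay a median of 0.15 above the mean log2 CPM ratio in this comparison and 0.17 above it within CCI. The few *Sprr1a*+ neurons of the sham libraries, 42 and 144 cells, had *Rgs20* at 19.0 and 20.0 CPM, *Rgs10* at 139 and 154 CPM and *Rgs8* at 0.793 and 1.33 CPM, closer to the *Sprr1a*+ neurons of the CCI libraries than to the *Sprr1a*- neurons of their own. Satellite glial markers summed to 1342 and 1679 CPM in *Sprr1a*- sham and 698 and 1014 CPM in *Sprr1a*+ CCI neurons. *Rgs20* had no UMI in the 581 satellite glia-like cells, which allows up to 2.65 to 5.25 CPM per library, and *Rgs10* was at 53.5 to 72.3 CPM there.

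Within the CCI libraries, where *Sprr1a*+ and *Sprr1a*- neurons came from the same ganglia, 8 of the 10 genes were lower and 1, *Rgs20*, was higher in *Sprr1a*+ neurons, beside 53.6% lower and 31.8% higher among all 16242 genes tested. *Rgs17* overlapped, at 171 and 171 CPM in *Sprr1a*+ and 177 and 163 CPM in *Sprr1a*- neurons, with log2 CPM ratios of -0.05 and 0.06 and an edgeR change of 0.18. *Rgs10* was at 714 and 801 CPM in *Sprr1a*- CCI neurons, a log2 change of -2.82 to the *Sprr1a*+ neurons. *Rgs2* was at 18.1 and 18.5 CPM in *Sprr1a*- CCI neurons, above both *Sprr1a*- sham values, and differed by -2.24. The median log2 change was -1.44 for the 10 genes and -0.00092 for all.

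The size of these differences rested on the definition of *Sprr1a*+. When any *Sprr1a* UMI sufficed, 2348 of the Male-CCI and 2913 of the Female-CCI neurons were positive, and the log2 change between *Sprr1a*+ CCI and *Sprr1a*- sham neurons was -1.53 for *Rgs8*, -1.32 for *Rgs5*, -1.25 for *Rgs10*, -1.52 for *Rgs16*, -0.42 for *Rgs2* and 1.71 for *Rgs20*. Within CCI the change of *Rgs4* turned from -0.13 to 0.32 with this definition. With presumed doublets kept, *Rgs8* differed by -4.71 and *Rgs5* by -4.004 from *Sprr1a*- sham neurons. Without cells of shared barcodes, the same changes were -5.92 for *Rgs8*, -4.91 for *Rgs5*, -3.16 for *Rgs10* and 2.15 for *Rgs20*.

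The comparison was also made inside each subtype that kept at least 10 *Sprr1a*+ cells in both CCI libraries. These were NP1 (97 and 106 *Sprr1a*+ cells), NF1 (55 and 31), NF2 (50 and 56) and PEP5 (10 and 13). NP1 of the CCI libraries was mostly a cluster led by *Wfdc3* (102 and 115 cells), and NP1 of the sham libraries mostly a cluster led by *Sst* and *Nppb* (82 and 63 cells). Of the *Sprr1a*+ NP1 cells 96 and 103 lay in the *Wfdc3*-led cluster, and of the *Sprr1a*- NP1 cells of CCI 25 and 23 lay in the *Sst*-led cluster and 6 and 12 in the *Wfdc3*-led one, so in NP1 the clusters and the *Sprr1a* groups largely coincide.

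*Rgs10* was lower in the *Sprr1a*+ cells of all 4 subtypes, in both sexes. It was at 79.5 and 89.7 against 210 and 222 CPM in NP1, 22.9 and 19.8 against 94.5 and 136 CPM in NF1, 115 and 115 against 354 and 353 CPM in NF2, and 173 and 199 against 816 and 772 CPM in PEP5, *Sprr1a*+ against *Sprr1a*-, male then female. *Rgs3* was also lower in all 4 subtypes, and *Rgs2* in NP1, NF1 and NF2. *Rgs5* could be followed in NF1, where *Sprr1a*+ cells had 4.66 and 1.80 CPM (21 and 3 UMIs) and *Sprr1a*- cells 107 and 136 CPM, with a UMI in 12.7% and 9.68% of the former and 21.9% and 20.0% of the latter. *Rgs16* had no UMI in *Sprr1a*+ PEP5 cells, which allows up to 14.8 and 8.06 CPM, and was at 22.9 and 22.6 CPM in *Sprr1a*- PEP5 cells.

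**Figure D3:**
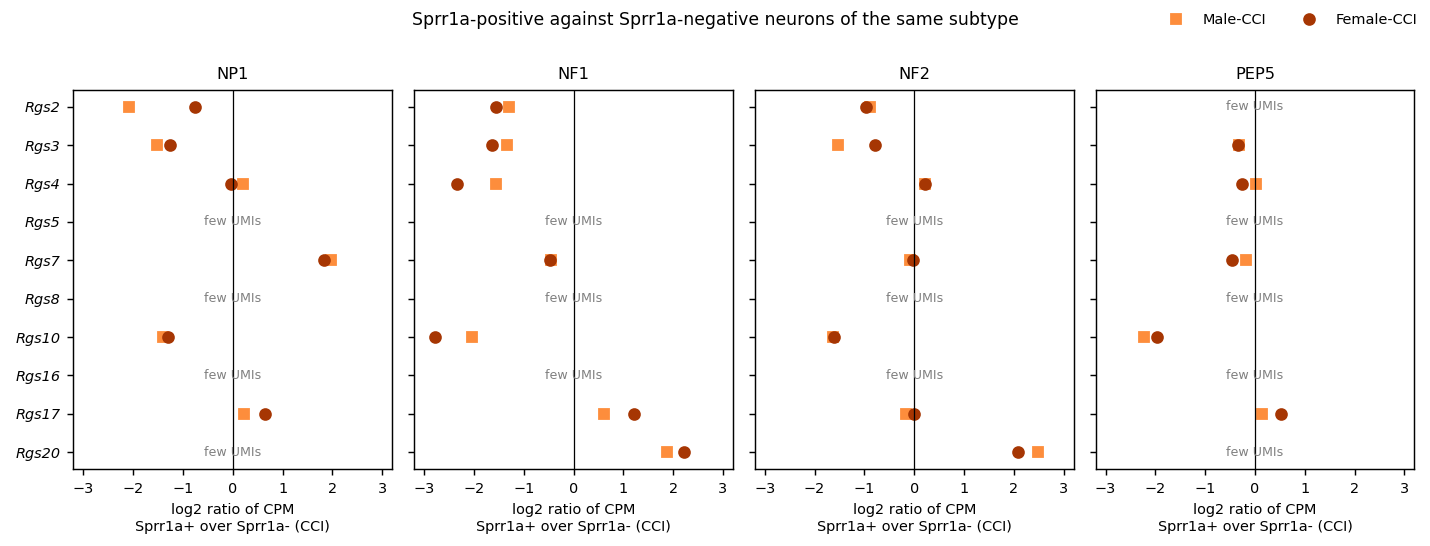
Log2 ratio of *Sprr1a*+ over *Sprr1a*- neurons of the CCI libraries within NP1, NF1, NF2 and PEP5, with 1 point for the male and 1 for the female library and no point where UMIs were few. *Rgs10* lies between -1.31 and -2.78 in all 4 subtypes, and *Rgs20* between 1.88 and 2.49 in NF1 and NF2.

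*Rgs20* was higher in *Sprr1a*+ cells of both large myelinated subtypes. It was at 30.8 and 22.8 against 8.37 and 4.88 CPM in NF1 and 27.8 and 24.5 against 4.96 and 5.77 CPM in NF2. In NP1 it was at 18.2 and 9.14 against 1.13 and 9.12 CPM, and the latter values rested on 2 and 16 UMIs in 31 and 35 *Sprr1a*- cells of both NP1 clusters. The *Wfdc3*-led NP1 cluster held 17.4 and 10.1 CPM in CCI (127 and 65 UMIs) and the *Sst*-led cluster 0.705 and 3.98 CPM (1 and 5 UMIs). *Rgs4* was lower in *Sprr1a*+ NF1 cells (101 and 56.9 against 298 and 286 CPM) but slightly higher in *Sprr1a*+ NF2 cells (166 and 178 against 144 and 152 CPM). *Rgs17* was higher in *Sprr1a*+ NF1 cells (173 and 197 against 114 and 84.7 CPM). In NF2 *Rgs17* differed little (89.6 and 93.7 against 101 and 94.5 CPM), with log2 CPM ratios of -0.17 and -0.01 that are not TMM-scaled. *Rgs7* was lower in *Sprr1a*+ NF1 cells (39.1 and 42.6 against 53.7 and 58.8 CPM). In NP1 *Rgs7* was at 11.1 and 10.2 against 2.82 and 2.85 CPM, the latter from 5 and 5 UMIs, beside 10.98 and 9.68 CPM in the *Wfdc3*-led and 1.41 and 2.39 CPM in the *Sst*-led cluster.

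The CCI-ind neurons, 3102 in all, fell into 5 clusters that differed in their RGS genes. *Rgs20* was highest in the cluster led by *Ly6a* (33.7 CPM in Male-CCI and 35.0 CPM in Female-CCI), followed by those led by *Wfdc3* (22.4 and 20.4 CPM) and *Crh* (21.2 and 19.3 CPM), whose values overlapped, and by *Anxa1* (13.5 and 14.5 CPM) and *Prss12* (13.8 and 10.4 CPM), which also overlapped. *Rgs10* was at 173 and 202 CPM in the *Crh*-led and 162 and 159 CPM in the *Prss12*-led cluster, and at 52.5 to 93.2 CPM in the other 3. *Rgs5* was at 4.86 and 13.6 CPM in the *Crh*-led cluster and at or below 1.02 CPM in the other 4. *Rgs17* was at 224 and 234 CPM in the *Ly6a*-led and 211 and 192 CPM in the *Anxa1*-led cluster, against 108 and 111 CPM in the *Crh*-led cluster. *Rgs4* was highest in the *Anxa1*-led cluster, at 503 and 428 CPM.

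*Sprr1a*- neurons of CCI ganglia, taken as spared neurons, differed little from *Sprr1a*- sham neurons. Of the 10 genes, 5 were lower, 4 higher and 1 overlapping, beside 27.3% lower and 35.2% higher among all 16407 genes tested, and no log2 change of a member was above 0.5 in size. *Sprr1a*- neurons of CCI still differed from those of sham in other injury genes, with *Ecel1* at 1.81 and 1.93 CPM in sham and 13.9 and 15.7 CPM in CCI (log2 change 2.96 ± 0.092, edgeR adjusted p = 0.000149) and *Sox11* higher by 1.34 ± 0.079 (edgeR adjusted p = 0.00192). The largest changes of members were 0.48 for *Rgs20* (4.48 and 4.50 CPM in sham, 5.30 and 7.40 CPM in CCI), 0.45 for *Rgs2* (13.7 and 12.6 CPM, 18.1 and 18.5 CPM) and -0.39 for *Rgs4* (632 and 542 CPM, 476 and 432 CPM). The change of *Rgs20* was 0.70 without the Male-CCI and 0.22 without the Female-CCI library. CCI-ind neurons made up 0.247% and 0.228% of the *Sprr1a*- sham and 2.89% and 3.95% of the *Sprr1a*- CCI neurons, and those of CCI held *Rgs20* at 24.7 and 20.4 CPM (57 and 63 UMIs).

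The subtypes within these neurons did not have the same shares in both surgeries. NP2 made up 14.2% and 11.2% of the *Sprr1a*- sham neurons and 10.9% and 8.77% of the *Sprr1a*- CCI neurons. cLTMR made up 11.2% and 12.8% of the former and 8.44% and 11.2% of the latter. *Rgs10*, high in both, was at 936 and 886 CPM over *Sprr1a*- sham and 714 and 801 CPM over *Sprr1a*- CCI neurons. With the 10 subtypes given equal weight and CCI-ind left out, the male and female log2 ratios of CCI over sham were -0.14 and -0.01 for *Rgs10*, -0.09 and 0.29 for *Rgs5*, -0.17 and -0.06 for *Rgs8*, 0.25 and 0.53 for *Rgs2*, -0.23 and -0.26 for *Rgs4*, 0.19 and 0.35 for *Rgs17* and 0.25 and 0.85 for *Rgs20*. *Rgs5* then had no common direction in the sexes.

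**Figure D4:**
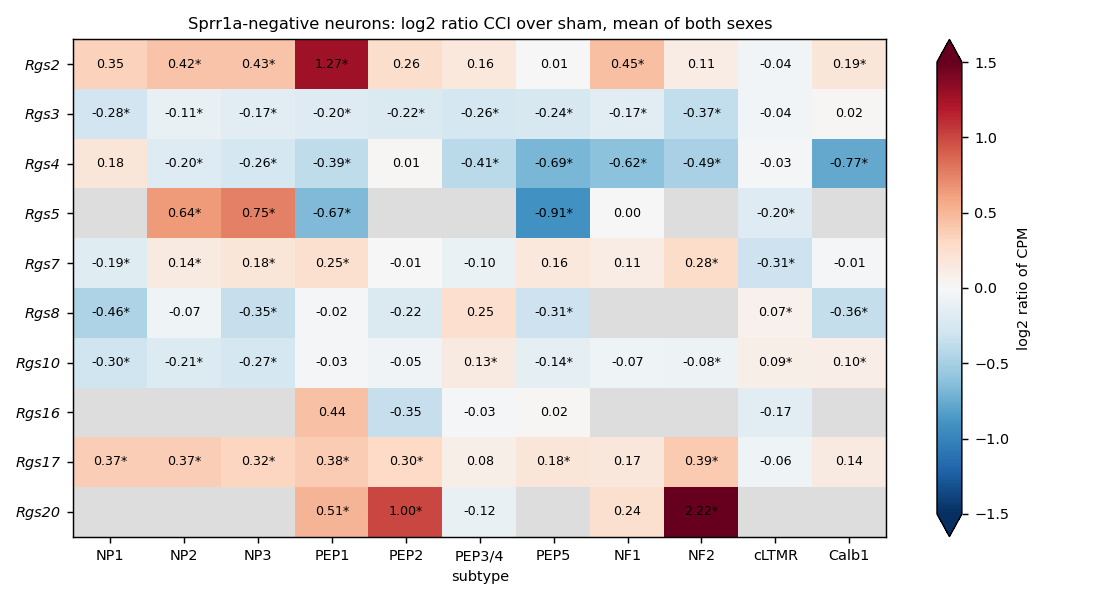
Mean of the male and female log2 ratio of CCI over sham in *Sprr1a*- neurons for each of the 10 RGS genes (rows) by subtype (columns), with a star where both CCI libraries lay on the same side of both sham libraries and grey where UMIs were few. *Rgs3* is lower with a star in 9 and *Rgs4* in 8 of 11 columns, and *Rgs17* is higher in 7.

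Subtype by subtype, *Rgs3* was lower in both CCI libraries in 9 of 11 groups and *Rgs4* in 8, and *Rgs17* was higher in 7 and *Rgs2* in 5. The 11 groups come from the same 4 libraries and are not independent. Over all pairs of a gene and a subtype, 22.5% were lower and 23.8% higher without overlap, and of 16406 genes 4.04% were lower in at least 9 groups, 5.91% lower in at least 8, 10.3% higher in at least 7 and 20.4% higher in at least 5. *Rgs2* in PEP1 was at 7.52 and 9.26 CPM in sham and 18.2 and 22.3 CPM in CCI, log2 ratios of 1.28 and 1.27. *Rgs4* in PEP5 was at 743 and 582 CPM in sham and 418 and 400 CPM in CCI, and in NF1 at 452 and 446 CPM and at 298 and 286 CPM. *Rgs5* was lower in 7 groups, beside 8.56% of genes lower in at least 7, but 4 of these groups had at most 3 UMIs in at least 1 library. It was higher in NP2 and in NP3, where it was at 203 and 212 CPM in CCI against 135 and 113 CPM in sham. *Rgs20* in NF2 was at 0.684 and 1.92 CPM in sham (4 and 10 UMIs) and 4.96 and 5.77 CPM in CCI (17 and 25 UMIs).

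Sex was the contrast that had not entered the choice of the genes, and the 10 genes were tested in it over all neurons with surgery as covariate. None of the 10 passed the test (edgeR, adjusted p below 0.05 and absolute log2 change above 0.5), beside 0.209% of 17233 genes tested, and none passed under any alternative. *Rgs4* was higher in males by 0.18 ± 0.043 (log2 change ± SE), with edgeR adjusted p = 0.223 and a range of 0.0473 to 1.0 over the alternatives. *Rgs17* (0.15 ± 0.050, edgeR adjusted p = 0.355) and *Rgs7* (0.14 ± 0.041, edgeR adjusted p = 0.293) were also nominally higher in males. Their unadjusted p were 0.0041 for *Rgs4*, 0.0216 for *Rgs17* and 0.0106 for *Rgs7* in the edgeR test, with 4 libraries in all. In the same fit 1867 of the 17233 genes tested had an unadjusted p below 0.05, so nothing is read from these values.

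The rest of the G protein signalling genes were counted from lists of the other RGS genes, their partners, G protein subunits, receptor kinases, effectors and channels. Here rose and fell mean higher and lower in the CCI neurons of a comparison, whose pools differed in subtype makeup. These genes were not compared within subtypes, so makeup and a change within neurons cannot be told apart. Between *Sprr1a*+ CCI and *Sprr1a*- sham neurons 49.8% of all 16881 genes tested passed, 3958 higher and 4450 lower. Of 7 tested other RGS genes 5 fell and 1 rose. *Rgs14*, of the same R12 family as *Rgs10*, fell by 4.02 ± 0.23 on the log2 scale (2.89 and 2.67 CPM to 0.193 and 0.112 CPM, edgeR adjusted p = 1.85e-06). The R7 genes *Rgs6* and *Rgs9* fell by 3.32 ± 0.26 and 2.51 ± 0.17 (edgeR adjusted p = 1.14e-05 and 4.64e-06). In *Sprr1a*- CCI against *Sprr1a*- sham neurons, where 4.47% of all genes passed, *Rgs6* rose by 0.85 ± 0.20 and *Rgs9* by 0.58 ± 0.11 (edgeR adjusted p = 0.0317 and 0.0163), and both lost the call without Male-Sham, without Female-Sham or without Female-CCI (edgeR adjusted p = 0.0552 to 0.13). The GIRK channel gene *Kcnj3* fell by 0.66 ± 0.083 in the same comparison (edgeR adjusted p = 0.00628), and *Gng13*, *Gng10* and *Gpsm3* fell by 0.86 ± 0.16, 1.00 ± 0.22 and 0.51 ± 0.058 (edgeR adjusted p = 0.0157, 0.0262 and 0.00539). *Gng10* lost the call without any 1 library (edgeR adjusted p = 0.0844 to 0.101), *Gng13* without Female-Sham or Female-CCI (0.0624 and 0.0922), and *Gpsm3*, by size, without Male-Sham or Female-CCI. All 3 also lost it when any *Sprr1a* UMI made a neuron positive (edgeR adjusted p = 0.125 to 0.728). No partner, kinase, arrestin, G alpha or G beta gene passed. *Rgs1*, *Rgs13*, *Rgs18*, *Rgs21* and *Rgs22* were too low to test.

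The partners of *Rgs7* parted. *Rgs7bp*, whose product tethers R7 proteins to the membrane, fell by 1.83 ± 0.11 between *Sprr1a*- sham and *Sprr1a*+ CCI neurons (538 and 429 CPM to 129 and 116 CPM, edgeR adjusted p = 1.19e-05). *Gpr158*, an orphan receptor that also recruits R7 proteins, rose by 1.78 ± 0.050 (26.63 and 25.01 CPM to 77.5 and 82.0 CPM, edgeR adjusted p = 5.19e-08). *Gnb5*, the obligate G beta 5 partner, did not pass, and *Gpr179*, the receptor partner known from the retina, fell by 4.44 ± 0.26 from 1.51 and 1.66 CPM (edgeR adjusted p = 1.98e-06). Of the 5 genes tested from the list of RGS partners, which is not limited to those of *Rgs7*, 1 rose and 3 fell.

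**Figure D5:**
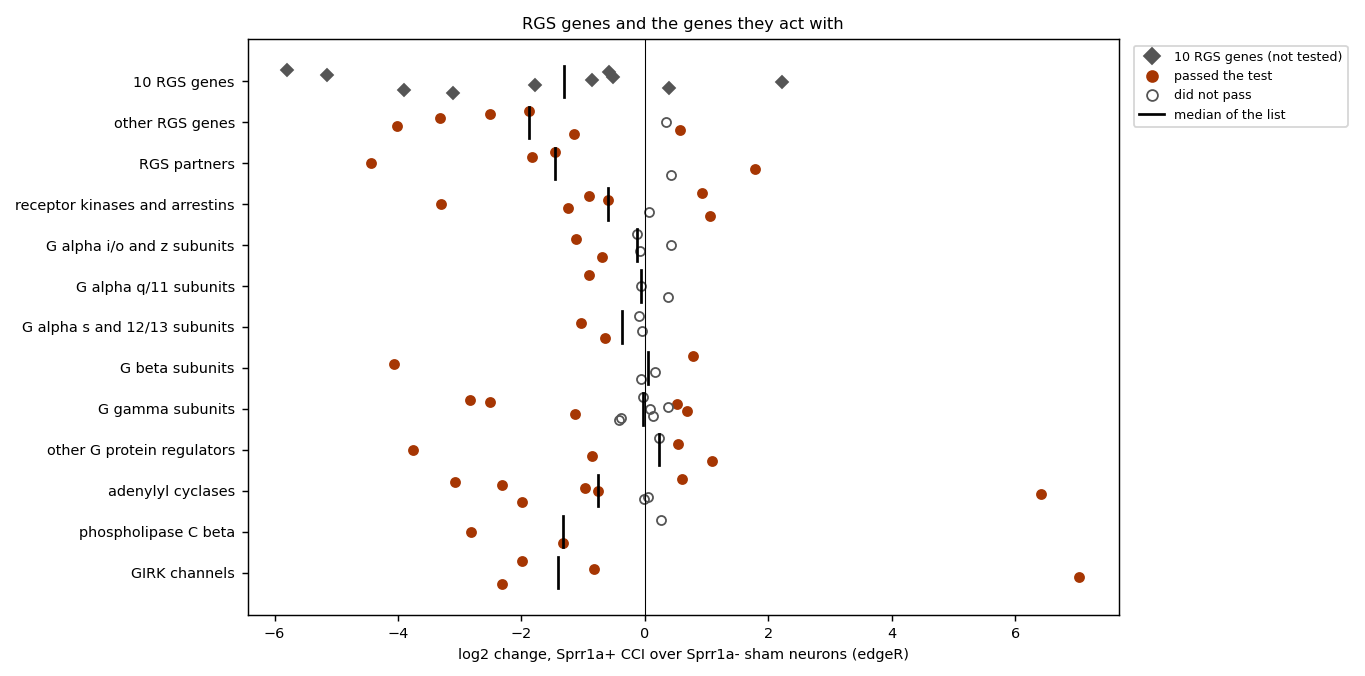
Log2 change of every tested gene of the G protein signalling lists between *Sprr1a*+ CCI and *Sprr1a*- sham neurons, with the median of each list and genes past the edgeR threshold marked. The 10 RGS genes, with a median of -1.32, are drawn as a description.

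Of the G alpha genes, 2 of 5 in the i/o and z list, 1 of 3 in the q/11 list and 2 of 4 in the s and 12/13 list fell in *Sprr1a*+ CCI against *Sprr1a*- sham neurons and none rose. *Gnao1*, the main Go gene of neurons, fell by 1.12 ± 0.058, *Gnai1* by 0.69 ± 0.095 and *Gnaq* by 0.91 ± 0.053 (edgeR adjusted p = 1.09e-06, 0.000772 and 2.08e-06). These 3 calls and those of *Gna12* and *Gnal* were lost when any *Sprr1a* UMI made a neuron positive, all but *Gnai1* by size alone. *Gpsm2* and *Plcb1*, among the falls counted below, also lost theirs by size. Of 4 G beta genes 1 rose and 1 fell: *Gnb4* rose by 0.77 ± 0.063 and *Gnb3* fell by 4.06 ± 0.22 (edgeR adjusted p = 1.37e-05 and 1.39e-06). Of 11 G gamma genes 2 rose and 3 fell, among them *Gng8*, which fell by 2.84 ± 0.099 (25.7 and 29.5 CPM to 3.33 and 3.63 CPM, edgeR adjusted p = 1.38e-07). Of 5 other regulators 2 rose and 2 fell, with *Gpsm3* at a log2 change of -3.76 ± 0.16 and *Gpsm1* at 1.09 ± 0.069 (edgeR adjusted p = 2.03e-06 and 3.31e-06).

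Receptor kinases and arrestins, which end receptor signalling upstream of the G protein, gave 2 rises and 4 falls among 7 tested genes. *Grk3* fell by 3.31 ± 0.11 (9.29 and 10.1 CPM to 0.852 and 0.917 CPM), *Grk2* fell by 1.24 ± 0.048 and *Arrb1* rose by 1.06 ± 0.061 (edgeR adjusted p = 9.86e-08, 2.42e-07 and 1.91e-06). Downstream, 2 of 9 adenylyl cyclase genes rose and 5 fell. *Adcy8* fell by 3.08 ± 0.32 and *Adcy7* by 2.32 ± 0.17 (edgeR adjusted p = 6.48e-05 and 2.30e-05), whereas *Adcy4* rested on 0 and 1 UMIs in sham and 26 and 25 in CCI. Of 3 phospholipase C beta genes 2 fell, and *Plcb3*, the effector of Gq in nociceptors, fell by 2.81 ± 0.080 (73.3 and 62.6 CPM to 8.62 and 8.84 CPM, edgeR adjusted p = 9.71e-08). Of 4 GIRK channel genes 3 fell and 1 rose, where *Kcnj3* fell by 2.32 ± 0.15 and *Kcnj9* fell by 1.99 ± 0.17 (edgeR adjusted p = 9.09e-06 and 2.13e-05), while *Kcnj5* had no UMI in sham and 11 and 9 in CCI, at least 5.94-fold above the higher of the floors of 3 UMIs per sham library.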

How the data were processed

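GFP+ cells of 4 pooled samples were profiled by droplet single-cell RNA sequencing. The authors deposited filtered Cell Ranger matrices of UMI counts (mm10), whole numbers with no normalization; all 4 matrices were used. From these counts, cells with at least 1500 genes and at most 10% mitochondrial UMIs were kept, and the highest Scrublet scores (scanpy 1.11.5) were removed in the numbers the study's supplement lists for each library (601 to 1381), because the automatic threshold marked only 0 to 121 cells. This left 15715 cells with a median of 31941.5 to 55255 UMIs per library. Seurat 5.3.0 integrated the libraries on 3000 variable genes without Rgs genes, with 20 principal components and resolution 0.8, and gave 30 clusters. A class qualified if 3 or more of its fixed markers were in at least 10% of cells at 2 times the level elsewhere. Of such classes, that with the highest mean log2 ratio of its markers gave the name. The name was dropped if none of these markers was among the cluster's top 10 genes and fewer of them passed than failed. In the end 1 cluster was satellite glia-like and 1 stayed unnamed.

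*Sprr1a*+ meant a natural log of 1 plus UMIs per 10000 above 1. UMIs were summed per library and group and tested with edgeR 4.0.16 (R 4.3.3; robust quasi-likelihood, TMM, filterByExpr, Benjamini-Hochberg over all genes tested; called at adjusted p below 0.05 and absolute log2 change above 0.5). *Sprr1a*+ against *Sprr1a*- neurons within CCI had the library as a block, and sex was tested with surgery as covariate. Each library was 1 pool of 5 mice, so p-values measure only the spread between pools, and since mice of a litter, male or female, shared a surgery, litter and surgery cannot be told apart. The fits were run on simulated counts with 200 changed genes: for CCI against sham over 17233 genes, edgeR found 100% of 4-fold and 95% of 2-fold changes with 4 false calls. The simulated counts had the same dispersion for all genes and far fewer changed genes than the 4798 called in the data. They therefore do not measure how many changes are found or falsely called in the data. Floors and UMI counts cover counting error only. Promoters came from RefSeq and positions from the mouse GRCm38 annotation.

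The members and all lists were chosen with earlier results of these data known. Named genes were all members and, of every other list, at most 3 called genes with the same direction in both sexes, largest change first; for each member, up to 3 genes with the highest correlation among genes at or above 5 CPM. *Gnb5* and the untested RGS genes were named beside counts after their values were seen. Alternatives were DESeq2 1.42.0 and its size factors, no low-count filter, replicate blocks, other *Sprr1a* limits, other cluster resolutions, doublets kept, and each library left out; leaving out cells of shared barcodes was added after the data were seen.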

Additional observations from a re-analysis of the deposited data

Results flagged for a closer look

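*Rgs4* differed in direction between the large myelinated subtypes. Within CCI its mean log2 ratio of *Sprr1a*+ over *Sprr1a*- cells was 0.22 in NF2 and -1.95 in NF1, with both sexes on the same side in each subtype. In *Sprr1a*- neurons, *Rgs7* was higher in CCI than in sham in NF2 (mean log2 ratio 0.28) and lower in cLTMR (-0.31), and *Rgs10* was higher in PEP3/4 (0.13) and lower in NP1 (-0.30), again in both sexes. Of the *Sprr1a*- NP1 cells, 6 of 31 in Male-CCI and 12 of 35 in Female-CCI lay in the *Wfdc3*-led cluster. In Male-Sham and Female-Sham these were 1 of 83 and 8 of 71, and their part in the level of *Rgs10* was not tested. *Rgs5* over all neurons was higher in males than in females in sham (log2 ratio 0.16) and lower in males in CCI (-0.37). These differences between subtypes or surgeries were not tested.

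In satellite glia-like cells, which no comparison used, *Rgs2* was at 19.6 CPM in Male-CCI and 21.0 CPM in Female-CCI, from 15 and 12 UMIs, and at 3.53 and 2.81 CPM in sham, from 4 and 2 UMIs. The 8 immune markers summed to 498 and 194 CPM in the sham and 2152 and 616 CPM in the CCI satellite glia-like cells, and their part in the level of *Rgs2* was not tested.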

How the results depend on the processing

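The count of genes past the threshold between *Sprr1a*+ and *Sprr1a*- neurons within CCI was 7393, and 4781 when any *Sprr1a* UMI made a neuron positive. Between *Sprr1a*- CCI and *Sprr1a*- sham neurons it was 734, and 325 to 704 with 1 library left out (426 without Male-Sham, 483 without Female-Sham, 325 without Female-CCI). Between males and females it was 36, and 108 with no filter on low counts, 67 with doublets kept and 0 with no replicate block for surgery, where 37 genes had an unadjusted p below 0.05 in edgeR. The subtype with the highest level was the same for 10 of 10 members under every alternative but 1, without Male-Sham, where it was the same for 9 (*Rgs3* was then highest in NP2). With 1 library left out, the counts were 4197 to 4498 for CCI against sham (4798 with all) and 8033 to 8058 for *Sprr1a*+ CCI against *Sprr1a*- sham neurons (8408 with all). The cause of these shifts was not tested, apart from the fewer libraries in the counts that leave 1 out.

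The male-minus-female difference in log2(CPM + 1) in sham correlated with that in CCI at r = 0.56 over 17233 genes. The male and female pools share no animals. With sex as a replicate block the counts were 4946 for CCI against sham, 8445 for *Sprr1a*+ CCI against *Sprr1a*- sham and 1076 for *Sprr1a*- CCI against *Sprr1a*- sham neurons; without the library block, 7304 genes passed within CCI. Over all alternatives, 450 values of members counted as the same, 80 counted as moved and 0 of those above 0.5 in size changed sign. A log2 change counted as the same if it moved by no more than the standard deviation of the male and female log2 ratios. In the sex comparison a value counted as the same if its call was unchanged. Of other named genes, 1032 values kept their call and 41 lost it. Libraries could not be left out for the comparison within CCI or for sex, which then have no residual degrees of freedom.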
